A study of Homo sapiens with 6 samples.

Results

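MIR31HG is a gene for a long non-coding RNA in band 9p21 of chromosome 9, and the 9 protein-coding genes described with it here are MLLT3, FOCAD, KLHL9, IFNE, MTAP, CDKN2A, CDKN2B, DMRTA1 and ELAVL2. The 10 genes were found by their symbols in the platform annotation, 1 probe set each, among the 18405 genes and 32321 probe sets of the array. MIR31HG was selected on its higher log2 values in DLD-1/DKK1 arrays in this same contrast, so these are given as a description. Its interval, and the settings in which it passed the threshold, follow from that choice and are no independent test of it. The 9 neighbours were taken for their place on the chromosome. The question was whether the difference at MIR31HG was local or was also seen in the genes around it.

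The arrays were Affymetrix Human Gene 1.0 ST, 3 of DLD-1/DKK1 and 3 of DLD-1/Mock RNA. DLD-1 is an established line of human colon carcinoma cells. DLD-1/DKK1 cells carried a Tet-On lentiviral vector for human DKK-1, a secreted inhibitor of Wnt signalling, with a V5 tag and eGFP on the same transcript. DLD-1/Mock cells carried the vector with eGFP and no DKK-1, and doxycycline was given to both groups for a day before the RNA was taken. The labels' protocol describes cell populations transduced with virus, of which nearly all are typically GFP-positive, and the methods speak of independent dishes. No source used here says how many transductions they came from, so p-values measure the spread between dishes.

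Band 9p21 holds a run of intron-less type I interferon genes on the telomere side of MIR31HG, and MTAP with the INK4 locus on its centromere side. The INK4 locus encodes p16INK4A, p14ARF and p15INK4B, inhibitors of the cell cycle that hold the retinoblastoma protein active or protect p53, and the stretch from MTAP to CDKN2B is often lost in tumours. MIR31HG is the host transcript of the microRNA miR-31, and its RNA has been described with Polycomb repressor proteins at the INK4 locus of fibroblasts. In the gene table used, IFNE and the gene of miR-31 both lie inside the span of MIR31HG, which makes them its closest neighbours.

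The mature microRNA and 3 promoters are shown first, because they set the host transcript beside the microRNA cut from the same locus, beside the gene nested in it, and beside the neighbour with the lowest p. The sequences are those of RefSeq on GRCh38.p14. In the mature miR-31-5p (chr9:21512158-21512178, minus strand) the capitals mark the seed, bases 2 to 8, with which a microRNA pairs to its targets:
hsa-miR-31-5p: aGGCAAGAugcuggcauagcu
Of 2545 mature human microRNAs in the sequence table, 1 had this seed, miR-31-5p itself.

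In the promoters, which run from 250 bases before to 50 bases after the annotated start, capitals mark CG dinucleotides. They are those of MIR31HG (chr9:21559749-21560048, minus strand), IFNE (chr9:21482264-21482563, minus strand) and FOCAD (chr9:20684009-20684308, plus strand):
MIR31HG promoter: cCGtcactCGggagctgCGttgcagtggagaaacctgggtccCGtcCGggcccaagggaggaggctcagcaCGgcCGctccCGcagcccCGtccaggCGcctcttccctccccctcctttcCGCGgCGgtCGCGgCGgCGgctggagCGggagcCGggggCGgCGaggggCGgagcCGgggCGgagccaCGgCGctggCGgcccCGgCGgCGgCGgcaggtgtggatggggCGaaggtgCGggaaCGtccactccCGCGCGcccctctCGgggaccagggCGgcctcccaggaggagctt
IFNE promoter: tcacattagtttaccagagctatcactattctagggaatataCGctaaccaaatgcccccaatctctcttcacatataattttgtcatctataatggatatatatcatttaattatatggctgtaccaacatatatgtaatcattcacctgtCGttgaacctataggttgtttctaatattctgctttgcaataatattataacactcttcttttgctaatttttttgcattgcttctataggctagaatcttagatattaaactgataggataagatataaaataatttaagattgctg
FOCAD promoter: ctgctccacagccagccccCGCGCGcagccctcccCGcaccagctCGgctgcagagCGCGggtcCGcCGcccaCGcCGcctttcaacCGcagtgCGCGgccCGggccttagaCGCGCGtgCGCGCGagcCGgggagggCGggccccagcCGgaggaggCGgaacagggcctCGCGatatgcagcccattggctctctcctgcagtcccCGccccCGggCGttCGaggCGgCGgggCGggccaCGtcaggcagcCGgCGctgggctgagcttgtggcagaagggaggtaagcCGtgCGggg
The MIR31HG promoter held 39 CG dinucleotides, at percentile 91.8 of the 35116 promoters of 300 bases in the table, whose median was 14. Its share of G and C was 77.7%, against a median of 58.7%. FOCAD was close to it, with 39 CG dinucleotides and 76.3% G and C. IFNE was unlike both, with 2 CG dinucleotides, at percentile 14.6, and 29.7% G and C. The GC box GGGCGG, searched on both strands, had 4 matches in MIR31HG and 4 in FOCAD and none in IFNE, and 45.0% of all promoters held at least 1. The letters TATAAA of a TATA box, also searched on both strands, had 1 match in IFNE and none in the other two. The IFNE match lies in the 50 bases after the annotated start and not upstream of it. Of all promoters, 11.5% held these letters. The remaining 7 members had between 11 and 40 CG dinucleotides over 13 annotated promoters, of which ELAVL2 accounted for 6 and CDKN2A for 2. FOCAD and 1 of the ELAVL2 promoters thus reached a count as high as that of MIR31HG, and these matches describe the letters only.

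The state of the arrays was checked before the genes were compared. DKK1 itself read 12.30, 12.38 and 12.36 in DLD-1/DKK1 arrays, against 5.15, 5.74 and 5.01 in DLD-1/Mock arrays, on the log2 scale used for all levels here, and so the labels were borne out in all 6 arrays. All 9 markers of colorectal epithelium were measured, at percentiles 32.8 to 98.8 of all probe sets, with EPCAM and KRT8 near the top, while the 4 leukocyte markers were at percentiles 9.83 (PTPRC) to 46.2 (CD79A), the 4 of fibroblasts at 10.9 to 57.7 and the 4 of endothelium at 23.0 to 41.7. None of these markers passed the adjusted threshold between the groups. DLD-1/Mock array 2 stood apart from the others, with a Pearson r down to 0.9953 over all probe sets. Across the array, 28 of 32321 probe sets passed an adjusted p of 0.05 by limma with Benjamini-Hochberg adjustment, which is 0.0866%, with 12 higher (0.0371%) and 16 lower (0.0495%). At an unadjusted p of 0.05 the share was 9.23%, with 4.02% higher and 5.21% lower, and in 16.5% of probe sets the 3 values of the groups did not overlap.

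MIR31HG was higher in DLD-1/DKK1 cells, as RNA of the whole dish. In it, more cells with a transcript and more of it per cell cannot be told apart. Its probe set read 6.95, 6.91 and 6.87 in DLD-1/DKK1 arrays, against 6.31, 6.41 and 6.45 in DLD-1/Mock arrays. All DLD-1/DKK1 values lay above all DLD-1/Mock values, and the gap of 0.42 between the groups was wider than the range within either, which was 0.08 in DLD-1/DKK1 and 0.14 in DLD-1/Mock. The means were 6.91 ± 0.04 in DLD-1/DKK1 and 6.39 ± 0.07 in DLD-1/Mock (SD, n = 3 each). This gave a log2 fold change of 0.52, a standard error (SE) of 0.05 and a 95% interval of 0.40 to 0.64, or 1.44-fold with an interval of 1.32 to 1.56. This is the value on which the gene was chosen, as 1 of the 28 probe sets that passed. It stayed among those that passed in 6 of 14 alternative settings, and in none that left out an array. By the size of its log2 fold change it stood at place 42 among 19158 probe sets with 1 symbol, and at place 19 among the higher ones. Its level was at percentile 48.1 of all probe sets, near the middle of the array.

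**Figure D1:**
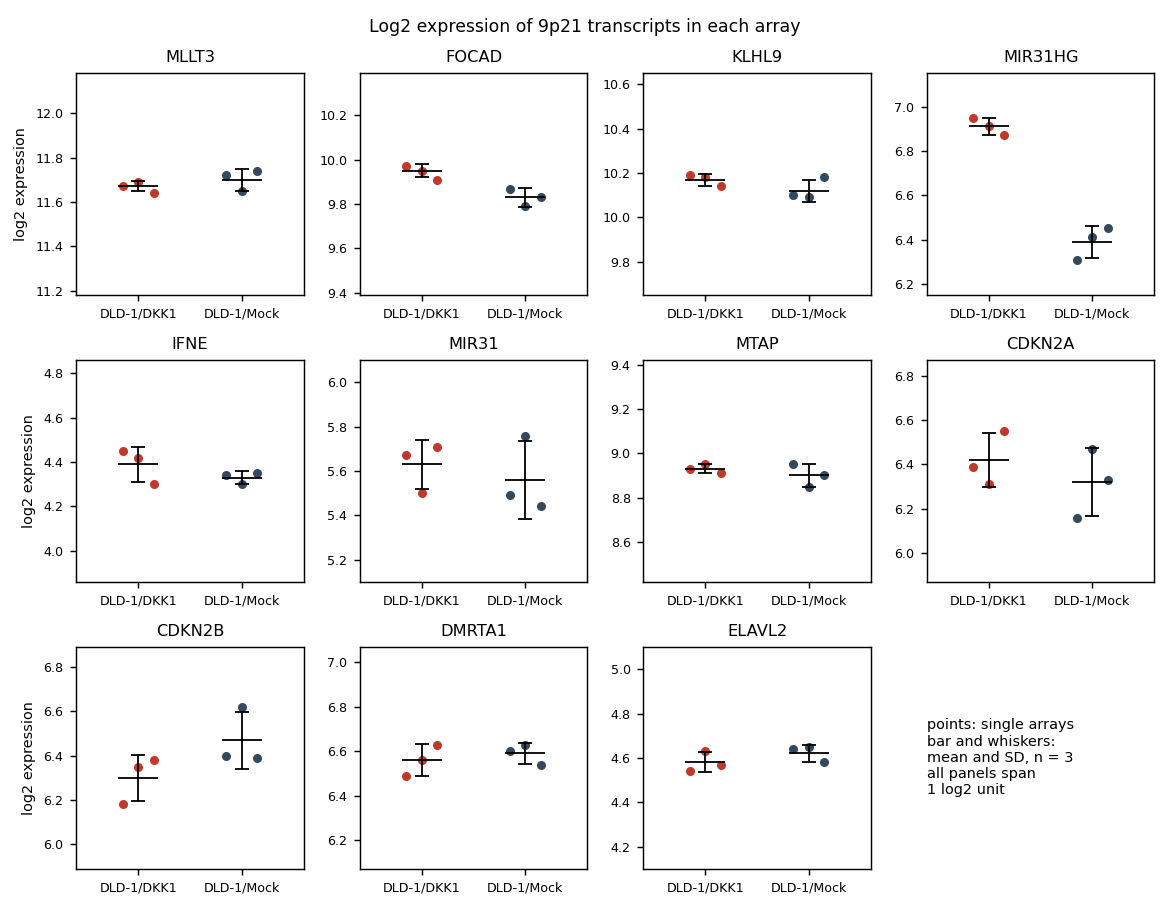
Log2 expression of MIR31HG, its 9 neighbours and MIR31 in each array, with DLD-1/DKK1 at the left and DLD-1/Mock at the right of each panel. Points are single arrays, bars and whiskers are mean and SD over 3 arrays, and every panel spans 1 log2 unit. The 3 DLD-1/DKK1 points of MIR31HG lie between 6.87 and 6.95, above the DLD-1/Mock points at 6.31 to 6.45, while in 7 neighbours and in MIR31 the groups overlap.

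Neither transcript inside the span of MIR31HG passed the adjusted threshold. The array reads sense transcripts, and how far probes of the host and of the nested genes overlap was not examined here. IFNE, which encodes interferon epsilon, an interferon of mucosal epithelia, read 4.45, 4.42 and 4.30 in DLD-1/DKK1 arrays, against 4.34, 4.30 and 4.35 in DLD-1/Mock arrays. The groups overlapped, and the log2 fold change was 0.06 (SE 0.05, 95% interval -0.06 to 0.19, adjusted p = 0.714 by limma). Its level was at percentile 10.2 of all probe sets, a dim level at which differences are compressed. The precursor of miR-31 had a probe set of its own, MIR31, which read 5.67, 5.50 and 5.71 in DLD-1/DKK1 arrays, against 5.49, 5.76 and 5.44 in DLD-1/Mock arrays. The highest of the 6 values belonged to a DLD-1/Mock array, and the log2 fold change was 0.06 (SE 0.10, 95% interval -0.18 to 0.30, adjusted p = 0.852 by limma). In an exact two-sided permutation test over the arrays, p was 0.3 for IFNE and 0.7 for MIR31, where 0.1 is the smallest p that 3 against 3 arrays can give. The array was labelled from total RNA and was not designed to measure mature microRNAs, so the MIR31 value says nothing of the mature form. The direction of MIR31 was lost when DLD-1/Mock array 3 was left out, with a log2 fold change of -0.000779.

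On the centromere side, none of the tumour suppressor genes and their neighbours passed the adjusted threshold. MTAP encodes the enzyme that cleaves methylthioadenosine, a by-product of polyamine synthesis, and returns it to methionine. It read 8.93, 8.95 and 8.91 in DLD-1/DKK1 arrays, against 8.95, 8.85 and 8.90 in DLD-1/Mock arrays, a log2 fold change of 0.03 (SE 0.04, 95% interval -0.07 to 0.13, adjusted p = 0.835 by limma). Its 6 values lay close together, at percentile 73.1 of all probe sets.

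CDKN2A encodes p16INK4A and, from another first exon, p14ARF, which 1 probe set for the gene cannot tell apart. It read 6.39, 6.31 and 6.55 in DLD-1/DKK1 arrays, against 6.16, 6.47 and 6.33 in DLD-1/Mock arrays. The groups overlapped, and the log2 fold change of 0.10 had the widest interval of the 9 neighbours (SE 0.09, 95% interval -0.13 to 0.32, adjusted p = 0.749 by limma). It was 0.17 without DLD-1/Mock array 2 and 0.0194 without DLD-1/Mock array 1. CDKN2B, which encodes the CDK4 and CDK6 inhibitor p15INK4B, read 6.18, 6.35 and 6.38 in DLD-1/DKK1 arrays, against 6.40, 6.62 and 6.39 in DLD-1/Mock arrays. All DLD-1/DKK1 values were below all DLD-1/Mock values, by a gap of 0.01 at the nearest pair. The log2 fold change was -0.17 (SE 0.08, 95% interval -0.37 to 0.03, adjusted p = 0.58 by limma, exact permutation p = 0.1), the most negative of the 9 neighbours and opposite in sign to MIR31HG. It was -0.0935 without DLD-1/Mock array 2, the array that stood apart, and -0.11 without DLD-1/DKK1 array 1.

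DMRTA1, a DM-domain transcription factor gene, read 6.49, 6.56 and 6.63 in DLD-1/DKK1 arrays, against 6.60, 6.63 and 6.54 in DLD-1/Mock arrays. Its log2 fold change was -0.03 (SE 0.05, 95% interval -0.16 to 0.09, adjusted p = 0.859 by limma), and its sign turned under 3 other normalisations and without DLD-1/DKK1 array 1. ELAVL2 encodes an RNA-binding protein of neurons. It read 4.54, 4.63 and 4.57 in DLD-1/DKK1 arrays, against 4.64, 4.65 and 4.58 in DLD-1/Mock arrays, a log2 fold change of -0.04 (SE 0.04, 95% interval -0.15 to 0.07, adjusted p = 0.774 by limma) that turned to 0.0119 with median centring. Its groups overlapped at percentile 15.4 of all probe sets, where differences are compressed.

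On the telomere side 3 members were measured, at percentiles 83.1 to 95.3 of all probe sets. KLHL9 encodes a substrate adaptor of the CUL3 ubiquitin ligase that acts in mitosis. Its readings were 10.19, 10.18 and 10.14 in DLD-1/DKK1 arrays, against 10.10, 10.09 and 10.18 in DLD-1/Mock arrays, a log2 fold change of 0.05 (SE 0.04, 95% interval -0.06 to 0.15, adjusted p = 0.733 by limma). MLLT3 encodes AF9, a reader of acylated histones that binds the super elongation complex. Readings of MLLT3 were 11.67, 11.69 and 11.64 in DLD-1/DKK1 arrays, against 11.72, 11.65 and 11.74 in DLD-1/Mock arrays, a log2 fold change of -0.03 (SE 0.04, 95% interval -0.14 to 0.07, adjusted p = 0.806 by limma) that was 0.0182 with median centring. In both genes the groups overlapped.

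FOCAD had the lowest p of the neighbours. It encodes focadhesin, a protein described at focal adhesions and as a partner of the SKI complex, which feeds messenger RNA to the exosome. It read 9.97, 9.95 and 9.91 in DLD-1/DKK1 arrays, against 9.87, 9.79 and 9.83 in DLD-1/Mock arrays. All DLD-1/DKK1 values were above all DLD-1/Mock values. The log2 fold change was 0.12 (SE 0.04, 95% interval 0.02 to 0.22), with an unadjusted p of 0.0257, an adjusted p of 0.509 by limma and an exact permutation p of 0.1, so it did not pass. This is 1.09-fold, against 1.44-fold at MIR31HG, and FOCAD stands 13 measured genes away from MIR31HG with other genes of the interval between them.

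Among the 9 neighbours there was no call, where 0.0866% of all probe sets passed. At that share, no call among 9 genes does not mark them out. All missed the adjusted threshold, with adjusted p-values of 0.509 to 0.859 by limma, and 1 of 9, FOCAD, was under an unadjusted p of 0.05, where 9.23% of all probe sets were. The median log2 fold change was 0.03, with a range of -0.17 to 0.12, beside a median of -0.006 over all probe sets and -0.007 over all 18405 genes. Of the 9, 5 were above 0. The groups did not overlap in 2 of 9 (22.2%), FOCAD and CDKN2B, which lay in opposite directions, beside 16.5% of all probe sets and 19.5% of all genes. In all 9 the upper end of the 95% interval, at most 0.32, lay below the lower end of 0.40 at MIR31HG, as it did in 18064 of the 18405 genes, so this is a bound on each neighbour and nothing that marks them out. MIR31HG exceeded the neighbours by 0.40 (FOCAD) to 0.69 (CDKN2B) in log2 fold change.

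The same was seen array by array. The mean log2 level of the 9 neighbours was 7.65, 7.67 and 7.67 in DLD-1/DKK1 arrays, against 7.64, 7.67 and 7.65 in DLD-1/Mock arrays. MIR31HG minus that mean was -0.70, -0.76 and -0.80 in DLD-1/DKK1 arrays, against -1.33, -1.26 and -1.20 in DLD-1/Mock arrays. The neighbours' mean overlapped between the groups. The difference of MIR31HG to it did not, which the choice of MIR31HG sets.

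**Figure D2:**
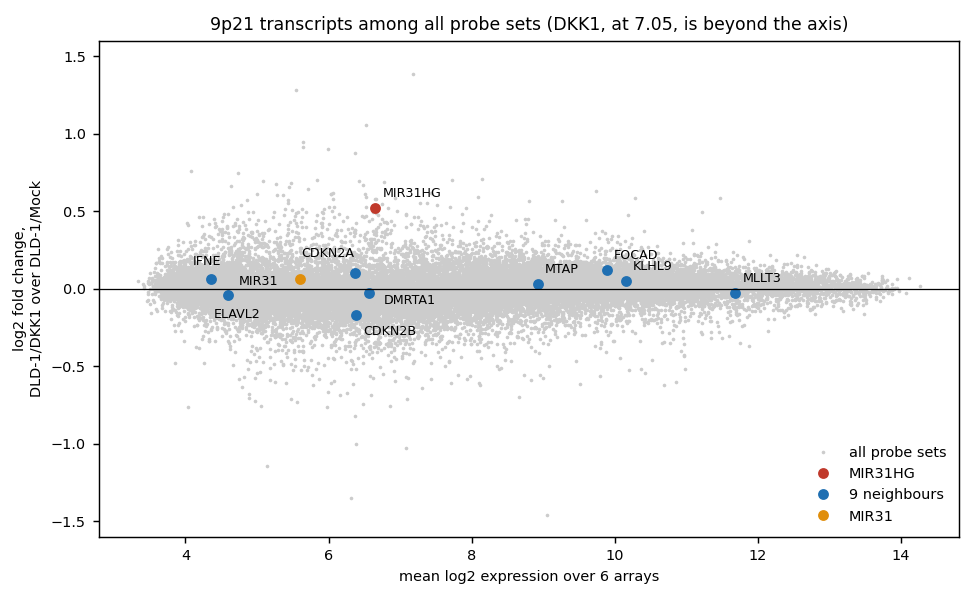
Log2 fold change (DLD-1/DKK1 over Mock) against the mean log2 expression over 6 arrays, for every probe set (grey), MIR31HG (red), its 9 neighbours (blue) and MIR31 (orange). MIR31HG stands at 0.52 at the edge of the cloud of its brightness, and the neighbours lie between -0.17 and 0.12, inside the cloud at every brightness.

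The wider neighbourhood was read by gene order, as the 15 measured genes nearest to MIR31HG on each side. None of these 30 genes, 9 of them the neighbours above, passed the adjusted threshold, beside 0.0866% of all probe sets. The adjusted p-values were 0.432 to 0.993 by limma. Their median log2 fold change was 0.004, with 16 above 0, a median of 0.003 on the telomere side and 0.005 on the centromere side. The groups did not overlap in 3 of the 30 (10.0%), beside 16.5% of all probe sets. In 29 of them the upper end of the interval was below 0.40, the lower end at MIR31HG. So it was in 18064 of the 18405 genes, and this does not mark the flanking genes out. The exception was IFT74, a gene of intraflagellar transport, with a log2 fold change of 0.16 and a 95% interval of -0.15 to 0.48. Its log2 fold change was 0.02 without DLD-1/Mock array 2.

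LINC03106, a long non-coding RNA gene 10 measured genes to the centromere side, had the lowest p of the 30. It read 4.57, 4.56 and 4.63 in DLD-1/DKK1 arrays, against 4.72, 4.73 and 4.76 in DLD-1/Mock arrays. It was lower in each DLD-1/DKK1 array, with a log2 fold change of -0.15 (SE 0.04, unadjusted p = 0.0089, adjusted p = 0.432 by limma) at a level of percentile 16.6. CDKN2A-AS1, a non-coding transcript antisense to CDKN2A, lay between MTAP and CDKN2A and had a log2 fold change of -0.12 (adjusted p = 0.618 by limma). The interferon genes between MIR31HG and FOCAD had single-gene probe sets in IFNB1, IFNW1 and 8 interferon alpha genes, at percentiles 5.96 to 27.5 of all probe sets. For the list of interferon genes and other 9p21 transcripts, 13 of 21 were measured, none passed and the median log2 fold change was 0.003, with a range of -0.11 (TUSC1) to 0.06 (MIR31). The interferon alpha genes are near copies of each other, and 4 further probe sets named several of them at once, with log2 fold changes of 0.04, -0.05, -0.01 and -0.03.

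**Figure D3:**
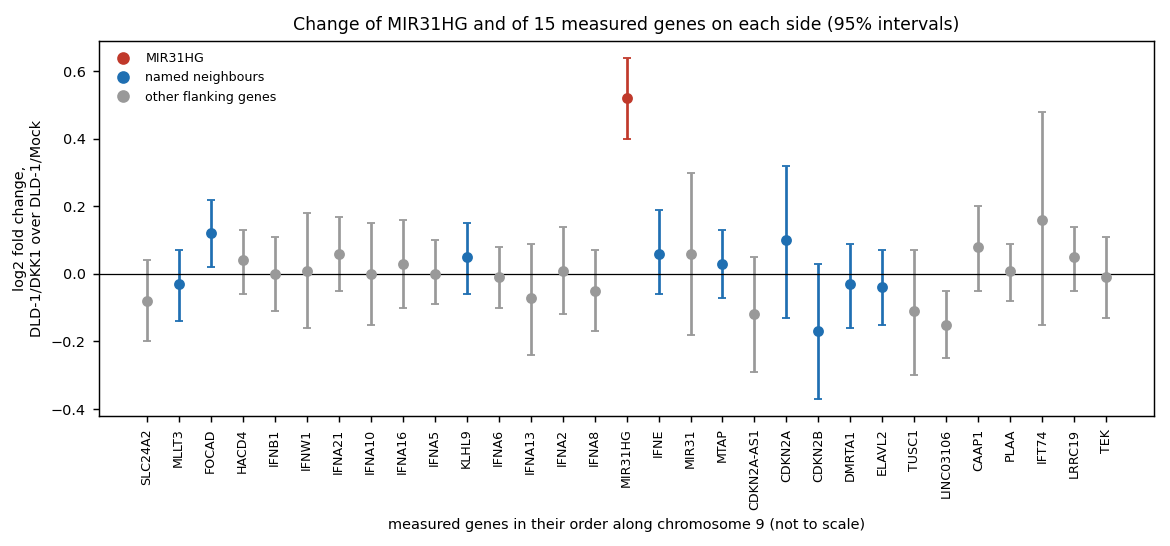
Log2 fold change (DLD-1/DKK1 over Mock), with its 95% interval, for MIR31HG (red) and the 15 measured genes on each side in their order along chromosome 9, the telomere at the left; the 9 neighbours are blue and the other genes grey. MIR31HG is at 0.52, and the 30 other genes lie between -0.17 and 0.16.

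With 50 measured genes on each side there was again no call among 100 genes, beside 0.0866% of all probe sets. The median log2 fold change was 0.004, the range was -0.34 to 0.31, and 2 were higher and 5 lower at an unadjusted p of 0.05, beside 4.02% higher and 5.21% lower of all probe sets. Both ends of that range were named after their values were seen. MOB3B, a MOB kinase activator gene 17 measured genes to the centromere side, read 9.20, 9.28 and 9.20 in DLD-1/DKK1 arrays, against 8.86, 8.96 and 8.93 in DLD-1/Mock arrays, a log2 fold change of 0.31 (SE 0.05, unadjusted p = 0.000451, adjusted p = 0.131 by limma). AQP3, a water and glycerol channel gene 36 measured genes away, had a log2 fold change of -0.34 (adjusted p = 0.465 by limma, SE 0.10). MOB3B was thus the highest of the 100 genes.

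The partners and pathways of the members were read from lists. No list had a gene past the adjusted threshold, which 0.0866% of all probe sets passed. Of 16 listed reported targets of miR-31, 14 were measured. Their median log2 fold change was 0.005, with a range of -0.14 (HIF1AN, the asparagine hydroxylase that restrains HIF) to 0.21 (FZD3, a Frizzled receptor), and 2 of 14 were higher and none lower at an unadjusted p of 0.05, beside 4.02% and 5.21% of all probe sets. TIAM1, a Rac exchange factor, had the lowest p of them and read 8.91, 9.01 and 8.93 in DLD-1/DKK1 arrays, against 8.81, 8.69 and 8.75 in DLD-1/Mock arrays, a log2 fold change of 0.20 (adjusted p = 0.398 by limma, SE 0.05). FZD3 had a log2 fold change of 0.21 (adjusted p = 0.524 by limma, SE 0.08) with overlapping groups. LATS2, a Hippo kinase, and RHOA, a small GTPase, had log2 fold changes of -0.08 and -0.02. The groups did not overlap in 3 of the 14 targets (21.4%), beside 16.5% of all probe sets. TIAM1 was higher, and LATS2 and RHOA were lower, in all DLD-1/DKK1 arrays.

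For the INK4 locus, 16 of 18 genes of the cyclin D kinases, the retinoblastoma family, E2F and the ARF and MDM2 branch were measured. Their median log2 fold change was 0.026. None of the 16 was under an unadjusted p of 0.05 by limma, beside 9.23% of all probe sets. CDK4 and CDK6, the kinases that p15INK4B and p16INK4A inhibit, had log2 fold changes of 0.05 and 0.00, RB1 had 0.04 and MDM2 had 0.02. The lowest was CDKN2D, an INK4 inhibitor encoded on another chromosome, with -0.18 (adjusted p = 0.612 by limma), or -0.08 without DLD-1/Mock array 2. Of 17 Polycomb genes 13 were measured, with a median of 0.031, and EZH2, a Polycomb histone methyltransferase, had a log2 fold change of 0.02 and CBX7, a reader of its mark, -0.03. None of the 13 was under an unadjusted p of 0.05. At a share of 9.23% of all probe sets, none among 13 or among 16 genes does not mark either list out.

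For MTAP, all 13 listed enzymes of methionine salvage and polyamine synthesis were measured, with a median log2 fold change of 0.007 and a range of -0.10 (MRI1, the next isomerase of the salvage pathway) to 0.10 (MAT2B, a regulatory subunit of methionine adenosyltransferase). For MLLT3, 14 of 15 genes of the super elongation complex and AF9 partners were measured, with a median of 0.028, and EAF2, an elongation factor partner, had a log2 fold change of 0.13 (adjusted p = 0.525 by limma, SE 0.05). For KLHL9, 8 of 8 listed genes of its CUL3 ligase and of partners were measured, with a median of 0.004 and a range of -0.04 to 0.07. The ELAVL family apart from ELAVL2 (3 of 3) had a median of -0.004, and the DMRT family apart from DMRTA1 (6 of 6) had -0.043. No gene of these last 3 lists, nor of the salvage list, was under an unadjusted p of 0.05, beside 9.23% of all probe sets. At that share, none in lists this short does not mark them out. In the salvage list the groups did not overlap in 5 of 13 genes (38.5%), 2 higher and 3 lower, beside 16.5% of all probe sets.

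For FOCAD, all 11 listed genes of the SKI complex and the RNA exosome were measured, with a median log2 fold change of 0.033, 3 of 11 higher and none lower at an unadjusted p of 0.05, beside 4.02% and 5.21% of all probe sets, and no call after adjustment. HBS1L, a partner of the SKI complex at stalled ribosomes, read 10.92, 10.93 and 10.93 in DLD-1/DKK1 arrays, against 10.86, 10.76 and 10.81 in DLD-1/Mock arrays, a log2 fold change of 0.12 (adjusted p = 0.512 by limma, SE 0.04). EXOSC3, an RNA-binding subunit of the exosome, read 9.65, 9.68 and 9.60 in DLD-1/DKK1 arrays, against 9.58, 9.35 and 9.49 in DLD-1/Mock arrays, a log2 fold change of 0.17 (adjusted p = 0.524 by limma, SE 0.06). The third was SKIC3, a scaffold of the SKI complex, with 0.13 (adjusted p = 0.534 by limma, SE 0.05). In each of these 3 genes the groups did not overlap, and DLD-1/Mock array 2, which stood apart over all probe sets, had the lowest value. Without that array their log2 fold changes were 0.09 (HBS1L), 0.11 (EXOSC3) and 0.09 (SKIC3), and the median of the list was 0.01. These 3 genes were named for their low p. Over the whole list the groups did not overlap in 4 of 11 genes (36.4%), beside 16.5% of all probe sets. The other one was EXOSC5, lower in DLD-1/DKK1 arrays, with a log2 fold change of -0.09 (adjusted p = 0.58 by limma).

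For IFNE, 5 of 7 genes of type I interferon receptor signalling were measured, with a median log2 fold change of 0.127, which fell to 0.02 without DLD-1/Mock array 2. JAK1, a kinase of the receptor, read 10.95, 10.97 and 10.92 in DLD-1/DKK1 arrays, against 10.71, 10.85 and 10.79 in DLD-1/Mock arrays, a log2 fold change of 0.16 (adjusted p = 0.465 by limma, SE 0.05). The receptor chains IFNAR1 and IFNAR2 had log2 fold changes of 0.13 and 0.14 with adjusted p-values of 0.684 and 0.726 by limma. Without DLD-1/Mock array 2 the log2 fold changes of the 2 chains were 0.03 and 0.02, while JAK1 was at 0.20. With 5 genes and no call after adjustment, the median is a description of few values.

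**Figure D4:**
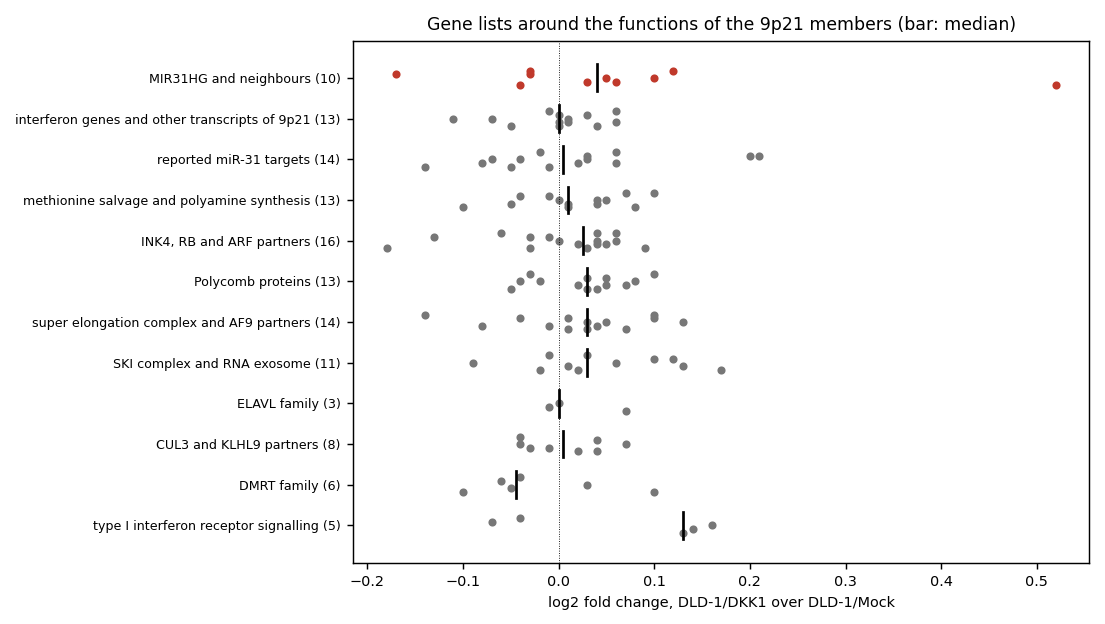
Log2 fold change (DLD-1/DKK1 over Mock) for each measured gene of the lists, with 1 row per list, the number of measured genes in brackets and a bar at the median. MIR31HG, at 0.52 in the top row, lies beyond all genes of the other lists, whose values run from -0.18 to 0.21. Its choice on this contrast sets this, as 34 of 18405 genes had a change at least as large in either direction.

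Transcripts were also ranked by the likeness of their pattern to that of MIR31HG. As MIR31HG was chosen on its group difference, a ranking over the 6 arrays favours probe sets whose groups also stand apart. By Pearson r over the 6 arrays the most like it were TNS3 (0.997), a focal adhesion tensin, and NRXN3 (0.996), a neurexin. Next came PCP4 (0.995), a calmodulin-binding peptide, UGT8 (0.994), a galactosyltransferase of myelin lipids, and METTL21A (0.989), a protein methyltransferase. Their log2 fold changes were 0.15, 0.28, 0.36, 0.30 and 0.14, all smaller than that of MIR31HG. Of 19157 other probe sets with 1 symbol, 353 (1.84%) had an r of at least 0.9, and none of the 9 neighbours did. At that share, none among 9 genes does not mark them out. The neighbours' r to MIR31HG was from -0.67 (CDKN2B) to 0.87 (FOCAD). For FOCAD it was -0.22 once each group was centred on its own mean. With 6 arrays, that value cannot show whether a likeness within the groups is absent. After the same centring the highest r was found for PSMB4 (0.998), CYSLTR2 (0.998), IFITM3 (0.997), PCIF1 (0.996) and DOC2B (0.993), with log2 fold changes of 0.01, 0.13, -0.02, 0.02 and -0.00. These are correlations over 6 arrays that share their dishes and labels, given as a description.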

How the data were processed

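Expression was measured in 3 DLD-1/DKK1 and 3 DLD-1/Mock arrays. Robust multichip averaging (RMA) was applied by the authors to the scans, giving the deposited log2 values. RMA is meant to equalise the arrays' distributions, which reduces a shift common to most transcripts, and it compresses differences at low brightness. The medians of the deposited values still differed. They were 6.787, 6.757 and 6.809 in DLD-1/DKK1 arrays, all below the 6.825, 6.861 and 6.824 in DLD-1/Mock arrays. The versions of the authors' tools appear in no source used here, and the scans were not used. The labels give doxycycline as 10 mg/ml and the methods give the same figure in micrograms.

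Of 32321 probe sets, 19158 had 1 gene symbol, 1388 several and 11775 none. Symbols were updated by gene number (GRCh38.p14 gene table, 19128 matched), which also gave the gene order. The array's own build was not given, so coordinates are printed for RefSeq sequences only. For medians 1 probe set per gene was kept, that with the highest mean, leaving 18405 genes.

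Samples were grouped by their titles. The deposited log2 values were fitted with limma 3.58.1 in R 4.3.3 (linear model and empirical Bayes, 4 residual and 2.56 prior degrees of freedom), two-sided, with Benjamini-Hochberg adjustment over all probe sets and a threshold of 0.05. The fit was tested on simulated data with known log2 changes. It recovered 23.2% of changes of 0.3, 60.4% of 0.5 and 92% of 1, so small changes can be missed. Single values had exact two-sided permutation tests. The number of arrays limits the precision. Figures were drawn with matplotlib 3.10.9.

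Members and lists were chosen with earlier results of these data known. Named were all members, DKK1, up to 3 flanking genes and up to 2 genes of each list with the smallest unadjusted p under 0.05, and the 5 probe sets most like MIR31HG by each of 2 correlations; other names give ranges, partners or roles and were chosen after values were seen. Alternatives were other normalisations, filters, priors, array weights, a replicate block, 50 flanking genes, and leaving out each array.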

Additional observations from a re-analysis of the deposited data

How the results depend on the processing

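The difference at MIR31HG kept its direction and size, with a log2 fold change of 0.48 to 0.57, under all 14 alternatives that could be run for it, but its adjusted p was under the threshold in 6 of them, and the range was 0.00938 to 0.378. It missed the threshold without moderation (0.52, adjusted p = 0.207), with the replicate number as a block (0.52, adjusted p = 0.378), and when any 1 array was left out (0.48 to 0.55, adjusted p 0.139 to 0.237 by limma). The filter on brightness removed it. MIR31HG was chosen on this contrast, so its p-values only show how that choice depends on the settings. No neighbour passed in any setting, and with the filter on brightness 4 of 9 could be tested. The neighbours' median was 0.0079 to 0.0826 with other settings and 0.00274 to 0.0315 with 1 array left out, the lowest without DLD-1/Mock array 2. List medians without that array were an alternative chosen after seeing the data. The flanking median was 0.0564 with median centring and 0.0479 above median brightness, where 7 genes were left, and -0.0149 to 0.0216 with 1 array left out. Median centring adds the same amount to every log2 fold change. The median over all probe sets was 0.046 with it, against -0.0063 in the main fit, and 0.0063 above median brightness. Signs turned for DMRTA1 (0.0194 with quantile normalisation, 0.021 with median centring, 0.0215 with cyclic loess, and -0.0674 to 0.00434 with 1 array left out), ELAVL2 (0.0119) and MLLT3 (0.0182) with median centring, and MIR31 (-0.000779 to 0.16 with 1 array left out). Probe sets past the threshold numbered 28, against 17 with median centring (10 higher, 7 lower), 66 above median brightness, 59 with array weights, 53 with a robust, trended prior, 98 when restricted to annotated ones (49 higher, 49 lower), 1 without moderation, 1 with the replicate block, and 2 to 6 with 1 array left out. The cause of these shifts was not tested. Same-numbered arrays had correlations of deviations of 0.105, 0.00821 and -0.137, inside the range of -0.235 to 0.225 of differently numbered arrays. With 3 arrays in each group, these values cannot show whether the numbers pair the samples. Low brightness limits IFNE, ELAVL2, LINC03106 and the interferon genes.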
